A study of Mus musculus with 8 samples.

Results

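The genes described are 10 members of the TGF-beta pathway among 19938 genes measured on 8 mouse Affymetrix MoGene arrays. They are the ligands Tgfb1, Tgfb2 and Tgfb3, the receptors Tgfbr1, Tgfbr2 and Tgfbr3, the signal transducer Smad3, the inhibitors Smad7 and Skil, and Tgfbi, a secreted matrix protein induced by the pathway. They were chosen by name, and each has 1 probe set whose annotation gives its symbol alone. The study put MBA-15, a pre-osteoblastic stromal line, together with DA3, a line from a mammary adenocarcinoma, to see how the cells affect each other. The 4 groups of 2 arrays were MBA-15 and DA3 from the co-culture (co-cultured MBA-15, co-cultured DA3) and each line by itself (the MBA-15 controls and DA3 controls, labelled alone in the plots). Both lines grew in the same serum-containing medium, and each sample is described as taken at 24 h (the growth protocol also gives a longer time). DA3 cells were seeded onto an MBA-15 layer, and the cells were later parted by magnetic particles that bind EpCAM (CD326), an epithelial surface protein.

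TGF-beta ligands are secreted in a latent form held in the matrix, and once released they bring a type II receptor (Tgfbr2) and a type I receptor (Tgfbr1) together. Tgfbr3, also called betaglycan, is a co-receptor that presents ligand, TGF-beta 2 above all. The activated type I receptor phosphorylates Smad2 and Smad3, which enter the nucleus with Smad4, while Smad7 blocks the receptor and Skil (SnoN) represses SMAD-bound genes. In bone the matrix is a large store of the ligands, and in mammary carcinoma the pathway is known for both growth arrest and invasion.

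All values are log2 expression, so 1 unit is a doubling, and all tests are limma contrasts over the 4 groups with Benjamini-Hochberg adjustment over all 19938 genes at a threshold of 0.05. Whether both arrays of a group stem from separate cultures is not given. The p-values therefore measure the spread between these arrays, which may be technical. The design text points to the culture date for the duplicates, but that label is the same for all 8 samples. The number of arrays limits the precision, and in these bulk samples fewer cells of a type and less RNA per cell cannot be told apart.

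The labelled MBA-15 controls went against their label in epithelial genes, though not in stromal markers. Epcam stood at 8.45 and 9.25 there, at 5.58 and 5.19 in co-cultured MBA-15 and between 9.30 and 9.57 on the 4 DA3 arrays. The mean of 19 epithelial markers was 7.23 and 7.77 on the labelled MBA-15 controls, 4.71 to 4.79 in co-cultured MBA-15 and 8.0 to 8.50 on the DA3 arrays. The mean of 18 stromal markers was 6.89 and 6.96 on the labelled MBA-15 controls. It was 7.36 and 7.09 in co-cultured MBA-15 and 5.19 to 5.58 on the DA3 arrays. On the labelled MBA-15 controls, 30 genes restricted to DA3 had come a median of 39.4% and 59.9% of the way from co-cultured MBA-15 to DA3 controls. This position on a linear scale is called the DA3 share. The 30 genes include Epcam and other epithelial markers, so these measures overlap. The same genes read only 65.4% and 76.3% in co-cultured DA3, and 52 genes restricted to MBA-15 read 75.9% and 56.0% on the labelled MBA-15 controls, so the shares are rough estimates. The MBA-15 share of co-cultured DA3, found the same way from the latter genes, was 5.28% and 4.70%. For the controls of both lines the descriptions use the term mix, without saying of what. Of 7 osteoblast markers measured, 5 and 7 were below the lowest array median of 4.48 on the co-cultured MBA-15 arrays (Alpl was at 5.05 and 4.28), while 14 of 18 stromal markers were above it on both. Of 7 leukocyte and 7 endothelial markers, 6 each were below it on every array.

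The upstream windows of the ligand Tgfb2 and of Tgfbi are shown because both genes were higher in the stromal line than in the carcinoma line. The RefSeq sequence table of build GRCm38.p6 was searched only in part, and that part held 7 windows for 6 of the 10 genes. Whether the rest of it holds windows of the other genes was not read. The windows are the 250 bases before the annotated start, read 5′ to 3′ on the gene's strand, with motif matches in capitals.

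Tgfb2 (chr1:186705990-186706239, minus strand): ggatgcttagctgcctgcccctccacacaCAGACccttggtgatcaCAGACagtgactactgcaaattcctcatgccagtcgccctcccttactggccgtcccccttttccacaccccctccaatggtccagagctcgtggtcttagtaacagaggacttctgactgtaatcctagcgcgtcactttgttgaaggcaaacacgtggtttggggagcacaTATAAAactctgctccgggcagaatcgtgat
Tgfbi (chr13:56609336-56609585, plus strand): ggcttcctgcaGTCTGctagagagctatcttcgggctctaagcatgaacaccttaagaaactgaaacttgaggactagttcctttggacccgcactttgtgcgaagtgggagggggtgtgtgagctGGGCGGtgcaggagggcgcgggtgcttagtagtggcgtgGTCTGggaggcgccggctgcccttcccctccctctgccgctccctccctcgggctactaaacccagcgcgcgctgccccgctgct

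Each of these windows held 2 matches to the SMAD box CAGAC, read on both strands. At least 1 match is held by 42.2% of all 32851 windows of this length, and the share with 2 was not counted. The Tgfb2 window held a TATA box (TATAAA, in 12.4% of windows) starting 31 bases before the annotated start, and the Tgfbi window held 1 GC box (GGGCGG, in 32.7%). Neither window matched the palindrome GTCTAGAC (in 0.167% of windows) or the AP-1 letters TGANTCA (in 6.75%). Smad3 and Tgfb1 had 2 and 5 GC boxes and no CAGAC in their windows, and Tgfbr2 had 1 CAGAC. Tgfbr1, also higher in MBA-15 between the fractions of the co-culture, had 2 windows. Of these, 1 held 2 GC boxes and no CAGAC, and the other held 1 CAGAC and no GC box. These are letter matches, not measured binding sites.

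**Figure D1:**
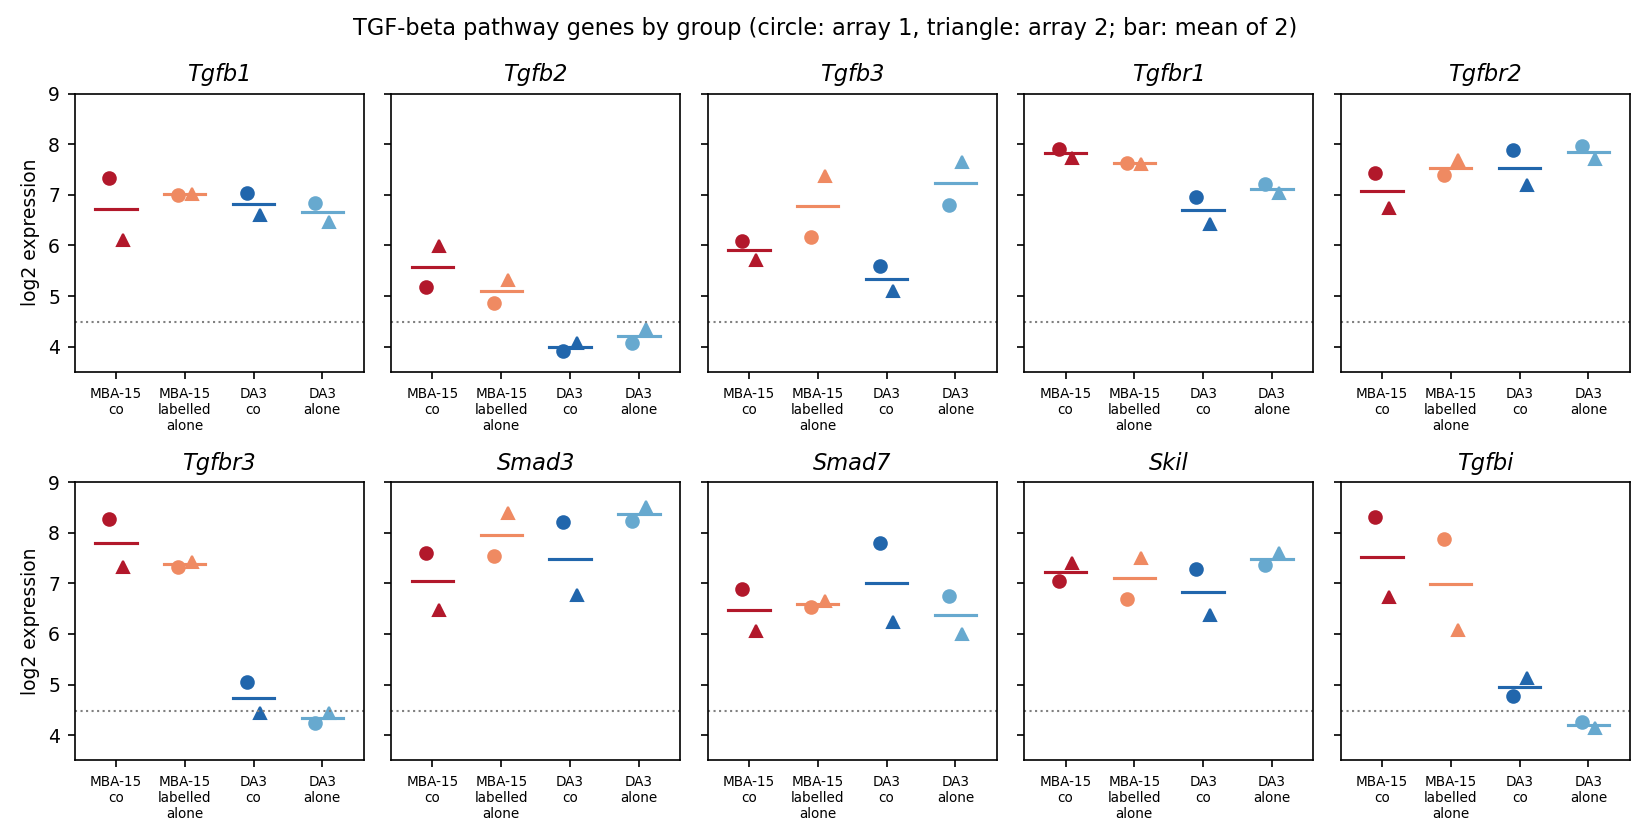
Log2 expression (vertical axis, the same for all panels) of the 10 TGF-beta pathway genes on each array of the 4 groups; circles are array 1, triangles array 2, bars the mean of 2, and the dotted line is the lowest array median of 4.48. Tgfb2, Tgfbr3 and Tgfbi are lower on every DA3 array than on every MBA-15 array, and Tgfb3 lies between 6.80 and 7.65 in DA3 alone against 5.10 and 5.59 in DA3 co-culture.

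Of the ligands, Tgfb2 marked the stromal line. It stood at 5.17 and 5.98 in co-cultured MBA-15 and at 4.87 and 5.31 on the labelled MBA-15 controls, against 4.07 and 4.36 in DA3 controls and 3.91 and 4.08 in co-cultured DA3. The 4 DA3 values lie below the lowest array median and below all MBA-15 values, so the difference may be understated. The groups of each line did not differ beyond their spread. Tgfb2 was 2.58-fold higher in co-cultured MBA-15 than in DA3 controls (1.37 ± 0.29 log2 units, SE; limma adjusted p = 0.0273) and 2.99-fold higher than in co-cultured DA3 (1.58 ± 0.29, limma adjusted p = 0.017). The first call was lost without co-cultured MBA-15 array 2 (0.96, adjusted p = 0.0819), DA3 control 1 (1.22, 0.172) or DA3 control 2 (1.51, 0.0985), and the second without co-cultured DA3 array 1 (1.5, 0.0617) or array 2 (1.67, 0.05, just past the threshold).

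Tgfb3 had lower values in co-cultured DA3 than in the DA3 controls, a difference that did not pass. It stood at 6.80 and 7.65 in DA3 controls and at 5.59 and 5.10 in co-cultured DA3, with 6.09 and 5.71 in co-cultured MBA-15 and 6.17 and 7.38 on the labelled MBA-15 controls. The DA3 controls are both above all 4 co-culture arrays of either line. In the order of group means (co-cultured DA3 5.34, co-cultured MBA-15 5.90, labelled MBA-15 controls 6.77, DA3 controls 7.23), only the last neighbours did not differ beyond their spread. In DA3 the co-culture value was lower by a factor of 3.70 (-1.89 ± 0.45, 95% interval -2.97 to -0.80). This was the 1 difference among the 10 genes with an unadjusted p under 0.05 for either line's co-culture, and it did not pass (limma adjusted p = 0.199). The sample descriptions give each array an assay number, of unstated meaning. Co-cultured DA3 array 2 is the only array of number 5, so differences that rest on it cannot be told apart from that number. The Tgfb3 difference was -2.06 within assay number 3, which holds arrays of both DA3 groups. It lay between -2.31 and -1.46 over the 17 alternatives tried, with adjusted p from 0.0773 to 0.668, and was -1.84 with the MBA-15 share of 4.99% mixed into the DA3 control arrays. Co-cultured MBA-15 was lower than DA3 controls by a factor of 2.51 (-1.33 ± 0.45, limma adjusted p = 0.124).

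Tgfb1, the most widely studied of these ligands, showed no order between groups beyond its spread. Its array values were 7.33 and 6.12 in co-cultured MBA-15, 7.0 and 7.02 on the labelled MBA-15 controls, 6.83 and 6.47 in DA3 controls, and 7.04 and 6.60 in co-cultured DA3. The co-cultured MBA-15 arrays span the range of all the others. Its difference between co-cultured MBA-15 and DA3 controls was 0.07 ± 0.39, with a 95% interval from -0.85 to 1.00, which reaches a doubling at its upper end.

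Tgfbr3, the co-receptor, was higher in the stromal line by 3.46 log2 units against the DA3 controls, where Tgfbi differed by 3.32. It stood at 8.28 and 7.32 in co-cultured MBA-15, 7.32 and 7.42 on the labelled MBA-15 controls, 4.24 and 4.44 in DA3 controls, and 5.04 and 4.43 in co-cultured DA3. All MBA-15 values are more than 2 units above all DA3 values, and 3 of the 4 DA3 values are below the lowest array median, so the difference may be understated. Tgfbr3 was 11-fold higher in co-cultured MBA-15 than in DA3 controls (3.46 ± 0.34, limma adjusted p = 0.00137) and 8.35-fold higher than in co-cultured DA3 (3.06 ± 0.34, limma adjusted p = 0.00269). Both calls held without each of the 8 arrays in turn, with limma adjusted p at most 0.0186 and 0.0132.

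The type I receptor Tgfbr1 differed less but with little spread. It stood at 7.90 and 7.73 in co-cultured MBA-15, 7.64 and 7.61 on the labelled MBA-15 controls, 7.21 and 7.03 in DA3 controls, and 6.95 and 6.43 in co-cultured DA3. No groups overlap, and each neighbouring pair in this order differed by more than its pooled SD. Between the fractions of the co-culture Tgfbr1 was 2.18-fold higher in MBA-15 (1.13 ± 0.19, limma adjusted p = 0.0126), a call that was lost without co-cultured MBA-15 array 1 (1.04, adjusted p = 0.055) and under a block for assay number (0.81, 0.0555). Against DA3 controls the difference of 0.69 ± 0.19 did not pass (limma adjusted p = 0.0653), and it passed without either co-cultured DA3 array (adjusted p = 0.0241 both times) and with a block for assay number (0.0291).

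The type II receptor Tgfbr2 leaned towards DA3 without passing. It stood at 7.42 and 6.74 in co-cultured MBA-15, 7.39 and 7.68 on the labelled MBA-15 controls, 7.97 and 7.71 in DA3 controls, and 7.89 and 7.19 in co-cultured DA3. Both DA3 control arrays are above both co-cultured MBA-15 arrays, and every neighbouring pair of groups in the order overlaps. The difference between co-cultured MBA-15 and DA3 controls was -0.76 ± 0.31 (limma adjusted p = 0.193).

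Smad3, which carries the signal of the receptors to the nucleus, had a wide spread within groups. It stood at 7.61 and 6.47 in co-cultured MBA-15, 7.53 and 8.38 on the labelled MBA-15 controls, 8.23 and 8.51 in DA3 controls, and 8.20 and 6.76 in co-cultured DA3. Both DA3 control arrays are above all co-culture arrays. The differences were -1.33 ± 0.57 between co-cultured MBA-15 and DA3 controls (limma adjusted p = 0.219), and -0.89 ± 0.57 between co-cultured DA3 and DA3 controls (adjusted p = 0.476). Leaving out co-cultured DA3 array 2 left the second at -0.17, and leaving out array 1 made it -1.61.

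Smad7, an inhibitor that TGF-beta itself induces, had its highest value on co-cultured DA3 array 1. It stood at 7.79 and 6.23 in co-cultured DA3, 6.75 and 6.00 in DA3 controls, 6.89 and 6.05 in co-cultured MBA-15, and 6.53 and 6.66 on the labelled MBA-15 controls. All groups overlap. The co-cultured DA3 difference of 0.64 ± 0.54 (limma adjusted p = 0.573) was -0.14 without that array. Pmepa1, another feedback inhibitor of the pathway, was also highest there, at 10.71 against 8.97 on array 2 and 9.36 and 8.0 in DA3 controls, with a difference of 1.16 ± 0.75 (adjusted p = 0.481) that was 0.29 without array 1.

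Skil stood at 7.05 and 7.41 in co-cultured MBA-15, 6.69 and 7.51 on the labelled MBA-15 controls, 7.35 and 7.59 in DA3 controls, and 7.28 and 6.37 in co-cultured DA3. Both co-cultured DA3 values are below both DA3 control values, the first by less than 0.1 unit. That difference was -0.65 ± 0.37 (limma adjusted p = 0.442), and no pair of neighbouring groups differed beyond its spread.

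Tgfbi was also higher on every MBA-15 array than on every DA3 array. It stood at 8.31 and 6.73 in co-cultured MBA-15, 7.88 and 6.09 on the labelled MBA-15 controls, 4.27 and 4.14 in DA3 controls, and 4.77 and 5.13 in co-cultured DA3. Array 1 is more than 1.5 units above array 2 in both MBA-15 groups, and all 4 values are above all DA3 values, those of the DA3 controls being below the lowest array median, so the difference from them may be understated. Tgfbi was 9.96-fold higher in co-cultured MBA-15 than in DA3 controls (3.32 ± 0.67, limma adjusted p = 0.0227). The call was lost without co-cultured MBA-15 array 1 (2.53, adjusted p = 0.0766), DA3 control 1 (3.38, 0.12) or DA3 control 2 (3.26, 0.126). Against co-cultured DA3 the 5.94-fold difference (2.57 ± 0.67) did not pass (adjusted p = 0.0551). It passed without either labelled MBA-15 control (0.0324 both times) or without co-cultured MBA-15 array 2 (3.36, 0.0421).

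**Figure D2:**
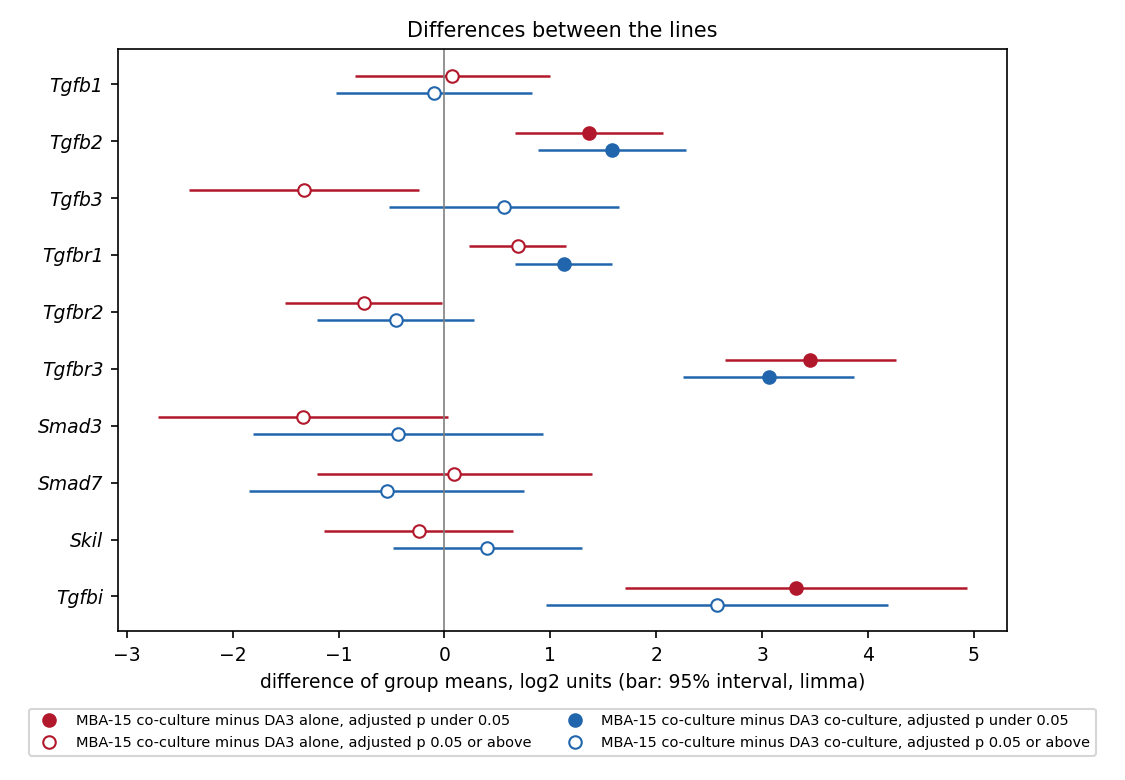
Difference between the lines for each of the 10 genes on the log2 scale (horizontal axis), MBA-15 co-culture minus DA3 alone in red and minus DA3 co-culture in blue, with 95% intervals from limma; filled circles passed an adjusted p of 0.05. Tgfbr3 and Tgfb2 passed in both, Tgfbi against DA3 alone and Tgfbr1 against DA3 co-culture.

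In all, 3 of the 10 genes were higher in co-cultured MBA-15 than in DA3 controls and 0 were lower, where limma called 6.08% of all genes higher and 6.47% lower (12.6% in all). Between the fractions of the co-culture 3 were higher and 0 lower, against 8.28% higher and 4.48% lower (12.8% in all). The comparisons share the co-cultured MBA-15 arrays. With 6 of the 10 genes positive in each, the median difference was 0.08 against DA3 controls and 0.48 against co-cultured DA3, beside medians of 0.00 and -0.07 over all genes. The arrays did not overlap for 4 genes higher (Tgfb2, Tgfbr1, Tgfbr3, Tgfbi) and 3 lower (Tgfb3, Tgfbr2, Smad3) against DA3 controls, where 27.2% and 26.6% of all genes were so. Against co-cultured DA3 5 were higher (the same 4 and Tgfb3) and 0 lower, where 23.3% and 31.9% of all genes were so. Within assay numbers 3 and 4, the difference from DA3 controls was 2.88 and 4.03 for Tgfbr3, 2.59 and 4.04 for Tgfbi, 1.63 and 1.11 for Tgfb2 and 0.70 and 0.69 for Tgfbr1.

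For co-culture itself, no gene of the 10 passed in either line. In MBA-15, limma called 0 of 10, where 0.0752% of all genes were called higher and 0.772% lower (0.848% in all). Of the 10, 0 had an unadjusted p under 0.05. In DA3 it called 0 of 10, beside 0.01% of all genes higher and 0.0301% lower (0.0401% in all), and Tgfb3 alone fell under an unadjusted p of 0.05. The size of the difference had a median over the 10 genes of 0.44 in MBA-15 and 0.54 in DA3, beside 0.16 and 0.21 over all genes. These sets are not alike in level. All of the 10 had a group mean above the lowest array median, but only 11876 of the 19938 genes did. The groups did not overlap for Tgfbr1 (higher) and Tgfb3 (lower) in MBA-15, where 22.3% and 16.1% of all genes were higher and lower without overlap. In DA3 they did not overlap for Tgfbi (higher) and for Tgfb3, Tgfbr1, Smad3 and Skil (lower), where 31.4% and 22.4% of all genes were so.

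The largest values in MBA-15 were -0.92 ± 0.57 for Smad3 and -0.87 ± 0.45 for Tgfb3 (limma adjusted p = 0.7 and 0.635). Within assay number 3 they were -1.91 and -1.66, and within assay number 4 they were 0.07 and -0.08. The labelled MBA-15 control that belongs to assay 3 is the one with the DA3 share of 59.9%. With the DA3 share of each labelled MBA-15 control mixed into the co-culture array of the same number, the mean differences became -0.04 for Smad3 and -0.01 for Tgfb3. These means hide opposite signs, 0.43 for array pair 1 and -0.50 for pair 2 in Smad3, and 0.52 and -0.54 in Tgfb3. For pair 1 of Smad3 the mixing widened the gap from 0.07. In that comparison the means of all 10 genes lay between -0.44 (Tgfbr3) and 0.24 (Skil), and Tgfb2, Tgfbr1, Tgfbr2, Tgfbr3 and Tgfbi changed sign.

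In DA3, Tgfbi differed by 0.75 ± 0.67 and Tgfbr3 by 0.39 ± 0.34 (limma adjusted p = 0.594 and 0.575), both genes being high in MBA-15. With the MBA-15 share mixed into the DA3 control arrays these values were 0.14 and -0.22. That share was estimated from the same co-cultured DA3 arrays, so the mixed values cannot decide what differs between the groups. Tgfbr1 differed by -0.43 ± 0.19 (adjusted p = 0.356), by -0.48 with that share mixed in and by -0.09 within assay number 3. Without co-cultured DA3 array 1 or array 2 it was -0.69 or -0.18. Limma called 0 of the 10 genes as different between the lines in their co-culture difference (0.0602% of all genes were called), and the value for Tgfbr1 was 0.63 ± 0.27 (adjusted p = 0.803) and for Tgfb3 1.01 ± 0.64 (adjusted p = 0.952).

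**Figure D3:**
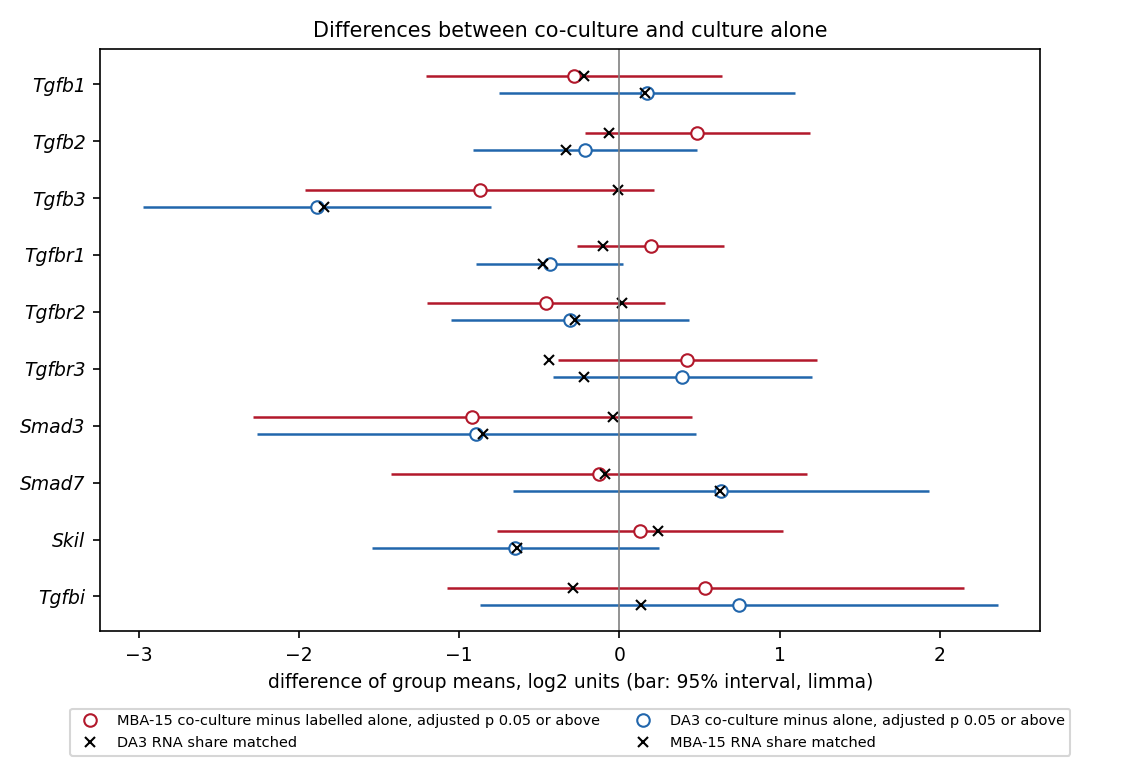
Difference between co-culture and culture alone for each of the 10 genes on the log2 scale (horizontal axis) in MBA-15 (red) and DA3 (blue), with 95% intervals from limma; open circles did not pass an adjusted p of 0.05. Crosses give the value after RNA of the other line was mixed in at the estimated share: in MBA-15 Smad3 moves from -0.92 to -0.04, the mean of 0.43 and -0.50 in array pairs 1 and 2, while Tgfb3 in DA3 moves from -1.89 to -1.84.

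The 3 genes with the widest range of group means were Tgfbr3, Tgfbi and Tgfb3. By the mean absolute difference of profiles centred on each gene's own mean over the 8 arrays, the genes most like Tgfbr3 were Rgl1 (0.08 log2 units), Npr2 (0.14) and Vegfd (0.14). Rgl1 stood at group means of 7.32 and 7.03 in co-cultured MBA-15 and the labelled controls, and at 4.03 and 4.23 in DA3 controls and co-cultured DA3. Those most like Tgfbi were Cxcl10 (0.23), Zbp1 (0.23) and Ndn (0.23). Those most like Tgfb3 were the collagen gene Col4a5 (0.17), the desaturase gene Scd1 (0.20) and Lgr4 (0.22). The group means of Col4a5 were 6.28 in DA3 controls, 4.47 in co-cultured DA3, 5.66 on the labelled MBA-15 controls and 4.84 in co-cultured MBA-15. That order is the order of Tgfb3, as the rule that picked the gene by its likeness would give.

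The rest of the pathway was read from 8 lists with 101 measured genes outside the 10. Between the fractions of the co-culture 21 of them were higher in MBA-15 and 10 lower, with a median difference of 0.19 (-0.07 over all genes), beside 8.28% and 4.48% of all genes called higher and lower. Against DA3 controls 26 were higher and 6 lower (median 0.07), beside 6.08% and 6.47% of all genes. The counts of single lists are read beside the same shares, and nothing particular to a list was tested. Of the called genes named by rule in the lists, 15 of 21 and 14 of 21 kept an adjusted p under 0.05 without each single array. Without 1 of the DA3 control arrays, the count called against DA3 controls went from 32 to 17 (array 1) or 19 (array 2). Over all genes the calls went from 1213 higher and 1290 lower to 544 and 451, or 560 and 508. Of the genes named next, Lrrc32, Eng, Bmp4 and Msx1 had both co-cultured DA3 values below the lowest array median. Itgb6, Pdgfb and Gdf5 had both co-cultured MBA-15 values below it, and Atoh8 and Bmper had 1 co-cultured DA3 value below it. The differences of these genes may be understated.

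Of 14 genes that store and release latent ligand, 4 were higher and 1 was lower in MBA-15 between the fractions. Lrrc32, which tethers latent TGF-beta to the cell surface, stood at 6.70 and 5.89 in co-cultured MBA-15 and at 4.12 and 3.11 in co-cultured DA3 (2.68 ± 0.37, limma adjusted p = 0.00624). The binding proteins Ltbp1 and Ltbp2 were higher by 1.84 and 1.85 (Ltbp1 was named after its value was seen), Ltbp2 losing its call without co-cultured MBA-15 array 1 or co-cultured DA3 array 2, and Mmp2, a matrix protease that is also one of the stromal markers, by 3.33 ± 0.16. Itgb6, a subunit of an epithelial integrin that activates latent TGF-beta, ran the other way. It stood at 3.63 and 3.66 in co-cultured MBA-15 against 5.52 and 5.49 in co-cultured DA3 (-1.86 ± 0.22, limma adjusted p = 0.00323).

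Among 12 other receptors of the family 3 were higher and 0 lower between the fractions. The co-receptors endoglin (Eng, 2.13 ± 0.20), Cd109 (2.82 ± 0.31) and neuropilin 1 (Nrp1, 3.03 ± 0.40) passed, with limma adjusted p = 0.00148, 0.00279 and 0.00519, and kept their calls without each single array. Nrp1 stood at 7.36 and 7.83 in DA3 controls and at 5.69 and 5.47 in co-cultured DA3, and that difference of -2.02 ± 0.40 did not pass (adjusted p = 0.158). Of 6 other SMADs only Smad5, a transducer of BMP signals, was higher in the MBA-15 fraction (1.47 ± 0.22, limma adjusted p = 0.00875). Of 13 co-repressors and feedback inhibitors limma called 0 in each of the 5 comparisons, with 0 to 3 at an unadjusted p under 0.05.

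Of 14 BMP and activin ligands 1 was higher and 2 were lower in the MBA-15 fraction. Bmp4 stood at 6.35 and 6.11 in co-cultured MBA-15 and at 4.44 and 4.18 in co-cultured DA3 (1.92 ± 0.23, limma adjusted p = 0.00363), and Bmp7 at 4.54 and 4.65 against 7.30 and 7.24 (-2.68 ± 0.24, adjusted p = 0.00138). Gdf5 also passed, at -0.56, and its call was lost without any 1 of the 8 arrays (highest adjusted p = 0.13). Of 14 extracellular antagonists 4 were higher in MBA-15 and 0 lower: the follistatin-like Fstl1 (3.33 ± 0.20), the BMP antagonists Bmper (2.27 ± 0.22) and Grem1 (2.24 ± 0.27), and the proteoglycan biglycan (Bgn, 2.07 ± 0.37). Bgn lost its call without either co-cultured MBA-15 array or co-cultured DA3 array 2 (highest adjusted p = 0.0654).

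Of 20 measured TGF-beta target genes 6 were higher and 7 lower in the MBA-15 fraction. The matrix genes Lox (2.84 ± 0.37), Col1a2 (2.75 ± 0.36) and Fn1 (2.79 ± 0.68) were among the higher, Fn1 losing its call without any single array except co-cultured DA3 array 1 (highest adjusted p = 0.16). The growth factor gene Pdgfb was among the lower, at 3.6 and 3.76 against 6.83 and 5.74 in co-cultured DA3 (-2.60 ± 0.42, limma adjusted p = 0.0102). Of 9 BMP targets Atoh8 (1.21) and Msx1 (0.57) passed. Atoh8 lost its call without any single array except co-cultured MBA-15 array 2 (highest adjusted p = 0.114), and Msx1 without any of the 8 (highest 0.152).

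**Figure D4:**
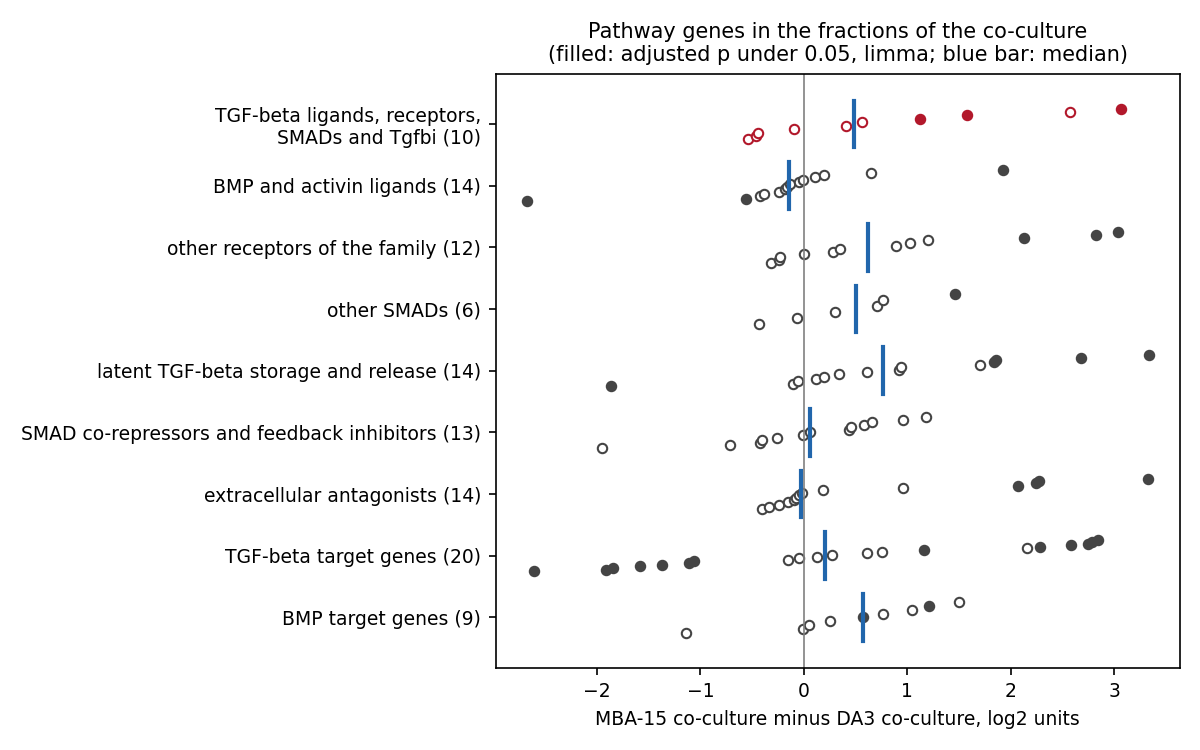
Difference between the MBA-15 and DA3 fractions of the co-culture on the log2 scale (horizontal axis) for the 10 genes (red) and the genes of the 8 pathway lists (grey; number measured in brackets); filled points passed a limma adjusted p of 0.05 and blue bars are medians. The 20 TGF-beta targets have 6 filled points on the right and 7 on the left, while the 14 antagonists have 4 on the right and 0 on the left.

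Co-culture moved few genes of these lists past the threshold. In MBA-15 0 of 101 were higher and 2 lower than on the labelled MBA-15 controls, beside 0.0752% and 0.772% of all genes. The 2 were Bmp7 (-2.06 ± 0.24, limma adjusted p = 0.0206) and Itgb6 (-1.50 ± 0.22, adjusted p = 0.0384), both of them high in DA3. With the DA3 share mixed into the co-culture arrays they were at 0.27 and 0.14, and limma called 0 of all 19938 genes. The share was estimated from these same labelled controls and was unequal between them, so that count cannot decide what differs between the groups. Bmp7 lost its call without any 1 array of co-cultured MBA-15 or DA3 controls (highest adjusted p = 0.133), and Itgb6 without any 1 array except labelled MBA-15 control 1 (highest 0.202). Larger differences in MBA-15 that did not pass were those of the TGF-beta targets Pdgfb and Ccn2. They were -2.62 ± 0.42 and -2.28 ± 0.43 (limma adjusted p = 0.0541 and 0.0933), and Pdgfb was at 0.41 with the DA3 share mixed in. In DA3 limma called 0 of 101, beside 0.0401% of all genes. Of the 101, 29 had an unadjusted p under 0.05, a share that was not counted over all genes. The largest values there were -2.02 for Nrp1 and -2.00 ± 0.31 for the differentiation inhibitor gene Id2 (limma adjusted p = 0.116). The collagen genes Col1a1 and Col1a2 followed at 1.92 ± 0.60 and 1.81 ± 0.36 (limma adjusted p = 0.26 and 0.16). Both are among the 52 genes that gave the MBA-15 share of 5.28% and 4.70%, so that share is not independent of their values. Without co-cultured DA3 array 1 or array 2, Col1a1 differed by 1.00 or 2.83. Id2 stood at 7.94 and 7.73 in DA3 controls and at 5.38 and 6.28 in co-cultured DA3, with no overlap.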

How the data were processed

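Expression per probe set was deposited by the authors on a log2 scale; the submitters' processing notes name RMA and Partek 6.5, without parameters or roles. The scale was read from the values, which run from 2.28 to 13.4. Of 35556 probe sets, 21789 had 1 gene symbol in the platform annotation, 1621 several and 12146 none. The probe set with the highest mean stood for each of 19938 genes, with no filter on dim genes. Groups and replicate numbers came from the titles.

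Contrasts of 4 group means over all 8 arrays were fitted with limma 3.58.1 in R 4.3.3 (4 residual and 2.6 prior degrees of freedom) and were tested on simulated data. The share of the other line was the median linear position of an array between co-cultured MBA-15 and the DA3 controls over genes with a gap above 4 log2 units, the 10 genes left out. Co-cultured MBA-15 stood for pure MBA-15. Pathway genes were named where called, up to 4 per list and comparison by size, or the largest 2 where none was called. The 10 genes, the lists and the comparisons were chosen with earlier results of these data known.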

Additional observations from a re-analysis of the deposited data

How the results depend on the processing

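The 6 called differences of the 10 genes kept their sign in 96 of 96 refits and their call in 83. Leaving out 1 array at a time gave 1 to 4 of the 10 called against the DA3 controls and 2 to 4 between the fractions. With only the groups compared, 1 was called between the fractions, since Tgfb2 and Tgfbr1 had adjusted p = 0.0714 and 0.0776, and Tgfb2 had 0.0599 against the DA3 controls. For co-culture in either line 0 of 10 were called under every alternative. Deviations of same-numbered arrays correlated at r = 0.010 between the MBA-15 groups, 0.032 between the DA3 groups, 0.21 and 0.31 between co-cultured MBA-15 and the DA3 controls and co-cultured DA3, and 0.13 and -0.41 between the MBA-15 controls and these, and the main fit did not pair them. Outside co-cultured DA3, every array 1 has assay number 4 and every array 2 assay number 3, so same-numbered arrays of those groups share that too. With the replicate block 4 of the 10 were called in each comparison of the lines, Tgfbr1 passing against the DA3 controls and Tgfbi between the fractions (adjusted p = 0.0465 and 0.0404), and 0 for co-culture in either line. Pathway genes called for MBA-15 co-culture (2) numbered 0 to 2 without single arrays, 4 with the assay number as a block or a filter on dim genes, 5 with a trend, and 0 with only the groups compared or the DA3 share mixed in. For DA3 co-culture (0) the trend gave 1. Against the DA3 controls (32) they numbered 17 to 35 without single arrays, and between the fractions (31) 18 with only the groups compared. Signs that turned belonged to values that had not passed, except Bmp7 and Itgb6. In MBA-15 co-culture, mixing in the DA3 share gave -0.062 for Tgfb2, -0.10 for Tgfbr1, 0.018 for Tgfbr2, -0.44 for Tgfbr3, -0.29 for Tgfbi, 0.27 for Bmp7, -0.029 for Cd109, 0.010 for Smad1, 0.14 for Itgb6, -0.077 for Bmper, -0.52 for Fstl1 and 0.41 for Pdgfb. Quantile normalization gave 0.016 for Smad7 there. In DA3 co-culture, the assay block gave 0.15 for Tgfbr2 and the MBA-15 share gave -0.22 for Tgfbr3. Ranges without single arrays crossed 0 for MBA-15 co-culture in Tgfb1 (-0.89 to 0.33), Tgfbr3 (-0.055 to 0.91), Smad7 (-0.54 to 0.29), Skil (-0.28 to 0.54), Tgfbi (-0.36 to 1.44), Nrp1 (-0.047 to 1.04) and Tgif1 (-1.29 to 0.16). They did so for DA3 co-culture in Tgfb1 (-0.050 to 0.39), Tgfbr2 (-0.65 to 0.044) and Smad7 (-0.14 to 1.42), and against the DA3 controls in Tgfb1 (-0.53 to 0.68) and Smad7 (-0.32 to 0.51). Between the fractions they did so in Tgfb1 (-0.71 to 0.51), Smad3 (-1.16 to 0.28), Smad7 (-1.32 to 0.24) and Skil (-0.051 to 0.86). The cause was not tested.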
